A study of Homo sapiens with 9 samples.

Results

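A set of 10 genes of the versican and hyaluronan matrix were followed in TC-32 cells, a long-established cell line from Ewing sarcoma, a tumour driven by the EWSR1::FLI1 fusion oncogene. They are the lecticans VCAN, BCAN and NCAN, the link protein gene HAPLN1, the testican gene SPOCK1, the hyaluronan synthase genes HAS1, HAS2 and HAS3, the hyaluronan-binding TNFAIP6 and the hyaluronan receptor CD44. The rows were taken by gene symbol, which gave 10 of the 58381 genes in the count table. The list was selected on measured values of these same libraries, among them the differences between the ETS1 groups and RFP, so those differences are described and no p-value is given for them. ETS1-High minus ETS1-Low is the difference between those values, so its p-values are printed as output of the fit and are not independent of the choice. Of the 10 genes, 7 passed the filter on low counts, and HAS1, HAS2 and NCAN did not.

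Bulk mRNA was sequenced from 3 groups of 3 libraries each. RFP cells carried pLOC, a lentiviral vector, with a gene for red fluorescent protein. ETS1-Low and ETS1-High cells carried pLOC with an ETS1 cDNA, at a lower level and at a level set against that of cells depleted of EWSR1::FLI1. Vectors were delivered by lentivirus, with puromycin selection and single cell sorting, and the fusion was present in all 3 groups. The number of clones per group is not stated, and neither is whether RFP cells were cloned. ETS1 and clone therefore cannot be told apart, and p-values measure only the spread between the libraries as labelled.

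Versican is a large chondroitin sulfate proteoglycan that binds long hyaluronan chains, and link proteins lock that complex in place. Hyaluronan itself is spun out at the plasma membrane by hyaluronan synthases, and cells hold it through receptors such as CD44. TNFAIP6, also known as TSG-6, moves the heavy chains of inter-alpha-inhibitor onto hyaluronan and so alters how the chains pack.

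Totals of expected counts ran from 39484704 to 46654734 per library. ETS1 had 87 to 105 counts in the RFP libraries, 400 to 488 in ETS1-Low and 765 to 879 in ETS1-High, in the order of the labels. The 8 Ewing sarcoma markers were all detected and summed to 2201 to 2279 CPM (counts scaled to normalised library size) in RFP, 3457 to 3503 in ETS1-Low and 3481 to 3499 in ETS1-High. Of the markers of other cell types, PTPRC, LYZ, VWF, CDH5, EPCAM, CDH1 and COL1A2 had at most 10 counts in any library and CD3E had 0. The 5 leukocyte markers summed to 2.82 to 3.55 CPM in RFP, 2.26 to 2.81 in ETS1-Low and 0.901 to 1.48 in ETS1-High, and the 3 endothelial markers to 1.66 to 2.12, 3.56 to 3.99 and 4.97 to 5.56 CPM. The 8 mesenchymal markers summed to 359 to 392, 397 to 403 and 531 to 568 CPM, and the 4 epithelial markers to 78.1 to 82.5, 156 to 165 and 110.2 to 112 CPM. Their part in the results below was not tested.

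Stretches upstream of 4 genes are shown because these genes had the widest gaps between groups, and because the vector carries a factor whose family binds a GGAA core. Each is read 5′ to 3′ on the strand of its gene from RefSeq on GRCh38.p14, within the 250 bases before the RefSeq start and stopping where an annotated exon begins. Capitals mark GGAA or its reverse complement TTCC, and in TNFAIP6 also the letters TGANTCA, to which AP-1 factors bind. VCAN is chr5:83471494-83471617, plus strand; BCAN is chr1:156641867-156642113, plus strand; HAPLN1 is chr5:83720856-83721105, minus strand; TNFAIP6 is chr2:151357342-151357591, plus strand.
VCAN: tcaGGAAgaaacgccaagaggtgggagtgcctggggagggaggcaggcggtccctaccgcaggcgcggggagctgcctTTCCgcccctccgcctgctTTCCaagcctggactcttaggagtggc
BCAN: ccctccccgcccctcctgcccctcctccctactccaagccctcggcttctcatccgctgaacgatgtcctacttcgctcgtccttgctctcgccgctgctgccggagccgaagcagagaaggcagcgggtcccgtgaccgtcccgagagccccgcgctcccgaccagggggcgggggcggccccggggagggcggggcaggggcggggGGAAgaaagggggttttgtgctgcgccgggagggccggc
HAPLN1: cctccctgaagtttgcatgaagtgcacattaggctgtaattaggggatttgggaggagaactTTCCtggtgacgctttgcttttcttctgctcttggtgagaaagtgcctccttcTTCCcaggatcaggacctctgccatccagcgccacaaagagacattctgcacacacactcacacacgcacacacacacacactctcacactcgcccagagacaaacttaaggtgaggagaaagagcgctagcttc
TNFAIP6: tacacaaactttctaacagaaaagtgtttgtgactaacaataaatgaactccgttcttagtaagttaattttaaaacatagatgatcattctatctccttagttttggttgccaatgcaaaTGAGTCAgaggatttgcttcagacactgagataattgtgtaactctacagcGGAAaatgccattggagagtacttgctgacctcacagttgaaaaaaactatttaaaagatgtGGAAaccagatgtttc

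VCAN had 3 matches to GGAA on either strand in its 250 bases, HAPLN1 and TNFAIP6 had 2 each, and BCAN had 1. Of the 35116 RefSeq promoter windows of this length, 92.7% hold at least 1 GGAA, with a median of 3, so these counts do not set the genes apart. None of these 4 windows held the longer ETS site CCGGAAG, which 8.52% of all windows hold, nor the tandem GGAAGGAA, which contains the core and which 3.06% hold. TNFAIP6 held TGAGTCA 129 bases before its start, and TGANTCA on either strand is in 6.57% of all windows. Of the other genes whose windows were examined, HAS3 had 7 cores, above the median of 3. It also had a tandem pair 96 bases before its start, and 3.06% of all windows hold such a pair. CD44 and HAS1 had 2 cores each. The CD44 window lies within an annotated first exon. No windows of HAS2, NCAN or SPOCK1 were examined. A match describes letters only.

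VCAN (ENSG00000038427.15; chromosome 5, 83471618 to 83582303, plus strand, GRCh38, protein coding) was the most abundant of the 10 genes in RFP and was nearly undetected in both ETS1 groups. It had 5600, 5365 and 5539 counts in RFP replicates 1 to 3. In ETS1-Low it had 2, 0 and 1 counts, and in ETS1-High 0, 3 and 2. The 3 RFP libraries stood far above the other 6, which overlapped each other at the limit of detection, where 3 counts correspond to 0.0615 to 0.0793 CPM depending on the library. The mean level was 115 ± 1.47 CPM in RFP (SD, n = 3), against 0.0258 in ETS1-Low and 0.0372 in ETS1-High. By pooled counts per library size, RFP was above ETS1-Low by a ratio of 4734 (95% exact counting interval 1619.6 to 22958) and above ETS1-High by 2961 (1269 to 9121). These intervals come from counts pooled over the 3 libraries of each group, so they cover counting error only and not the spread between libraries. The libraries were also amplified without molecular identifiers, which the intervals do not take into account. Between ETS1-High and ETS1-Low the edgeR quasi-likelihood test gave a log2 fold change of 0.62 (SE 0.90; Benjamini-Hochberg adjusted p 0.598), and without ETS1-High replicate 2 the value was -0.02. In bulk RNA, fewer cells with the transcript and less transcript per cell cannot be told apart.

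BCAN (ENSG00000132692.18; chromosome 1, 156641390 to 156659532, plus strand, protein coding) encodes brevican, a lectican best known from brain matrix. It had 1185, 1112 and 1166 counts in RFP, 20, 32 and 28 in ETS1-Low, and 20, 17 and 22 in ETS1-High. Every ETS1 library lay below every RFP library, but unlike VCAN the transcript stayed measurable in all 6. The level was 24.1 ± 0.480 CPM in RFP (SD, n = 3), against 0.641 ± 0.0983 in ETS1-Low and 0.460 ± 0.0709 in ETS1-High. The fitted log2 fold change against RFP was -5.21 (SE 0.11) in ETS1-Low and -5.71 (SE 0.11) in ETS1-High. ETS1-High was below ETS1-Low by a log2 difference of -0.50 that missed the threshold (SE 0.22; adjusted p 0.0691, edgeR). Left without ETS1-Low replicate 1, that difference was -0.61 and passed it.

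Antisense transcripts of BCAN were low in the same libraries. The largest was a lncRNA (ENSG00000272405, picked after its values were seen) that shares 162 exon bases with BCAN, with 87, 117 and 97 counts in RFP, 3, 7 and 15 in ETS1-Low, and 6, 4 and 1 in ETS1-High. BCAN-AS2, which shares 354 exon bases with BCAN on the other strand, had 17, 24 and 26 counts in RFP, 1, 1 and 5 in ETS1-Low, and 0, 1 and 0 in ETS1-High. BCAN-AS1, which was not among the annotated genes that overlap BCAN, had 16, 12 and 23 counts in RFP. It had 2, 1 and 0 in ETS1-Low and 0 in the ETS1-High libraries. The libraries came from a stranded kit, but whether the counting used strand is not given in the sources used here. Reads of BCAN and the antisense genes that overlap it may therefore be mixed. The expected counts of BCAN were whole numbers in all 9 libraries, and mixing was not tested. The antisense counts are small beside those of BCAN in RFP, but less so in the ETS1 groups: in ETS1-Low replicate 3 the lncRNA had 15 counts beside 28 of BCAN. VCAN-AS1, which shares 453 exon bases with VCAN, had 0 counts in all 9 libraries.

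NCAN, the neurocan gene, had 0, 4 and 2 counts in RFP, 1, 2 and 0 in ETS1-Low, and 0, 0 and 2 in ETS1-High, too few to test. ACAN, the aggrecan gene and the remaining lectican, had 1 count in each of 2 libraries. On the length-scaled FPKM, the summed level of the 4 lecticans was 25.7 ± 0.315 in RFP, 0.290 ± 0.131 in ETS1-Low and 0.227 ± 0.0252 in ETS1-High (SD, n = 3). VCAN gave 16.3 and BCAN 9.47 of the RFP sum. What lectican transcript remained in the ETS1 groups was mainly BCAN, at 0.280 FPKM in ETS1-Low and 0.193 in ETS1-High.

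**Figure D1:**
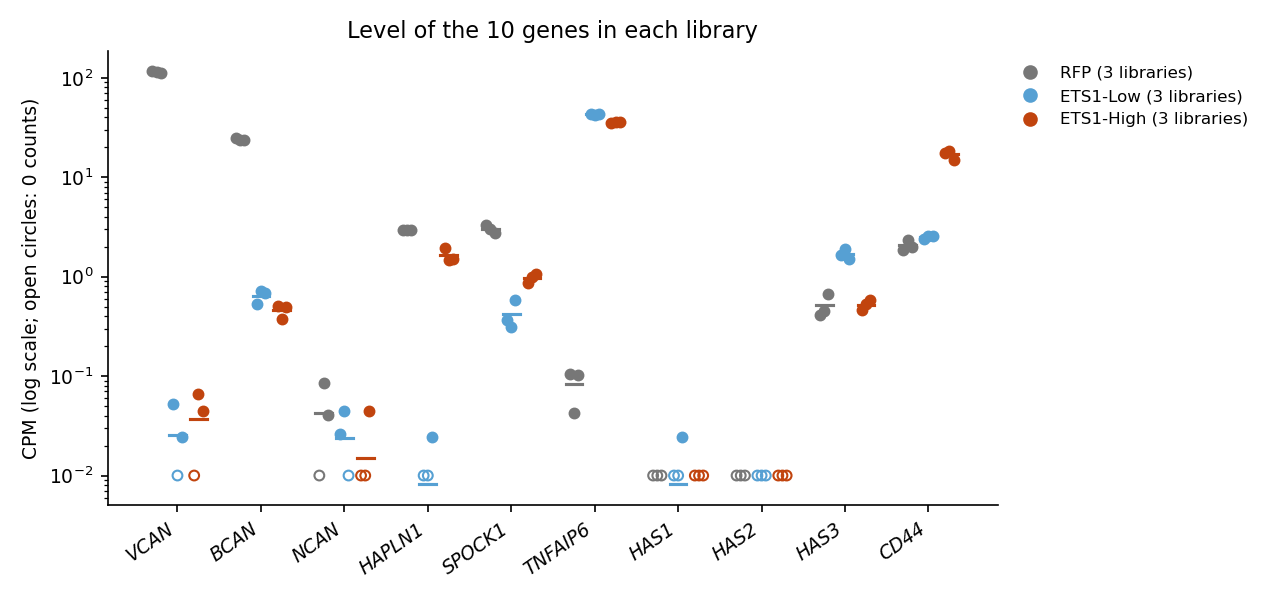
Level of the 10 genes in each of the 9 libraries, in CPM on a log axis; points are libraries, horizontal bars are group means and open circles are libraries with 0 counts. VCAN and BCAN lie high in RFP alone, TNFAIP6 high in both ETS1 groups, CD44 high in ETS1-High, and HAPLN1 low in ETS1-Low.

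HAPLN1 (ENSG00000145681.10; chromosome 5, 83637805 to 83720855, minus strand, protein coding) encodes the link protein that ties lecticans to hyaluronan, and it lies 55501 bases from VCAN. Its counts were 143, 139 and 143 in RFP, 0, 0 and 1 in ETS1-Low, and 76, 66 and 68 in ETS1-High. The 3 groups did not overlap, and ETS1-Low, the group with the smaller ETS1 level, had at most 1 count per library. The level was 2.96 ± 0.0227 CPM in RFP and 1.64 ± 0.252 CPM in ETS1-High (SD, n = 3), a log2 difference of -0.85 (SE 0.16). RFP was above ETS1-Low by a ratio of 366 (95% exact counting interval 65.3 to 14479). ETS1-High was above ETS1-Low by a ratio of 201 (35.8 to 7994), and this difference passed the edgeR test (adjusted p 2.05e-19; higher in 3 of 3 libraries). VCAN and HAPLN1 thus differed in pattern although they are neighbours: both were near 0 in ETS1-Low, and in ETS1-High only VCAN was.

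Each lectican gene has a link protein gene beside it: HAPLN2 lies 15664 bases from BCAN, HAPLN4 lies 2522 bases from NCAN and HAPLN3 lies 1940 bases from ACAN. HAPLN2, named here after its values were seen, had 19, 22 and 27 counts in RFP, 4, 3 and 7 in ETS1-Low, and 4, 2 and 2 in ETS1-High. Like its neighbour BCAN it was lower in every ETS1 library than in every RFP library, by fitted log2 differences of -2.03 (SE 0.44) and -2.87 (SE 0.49), with no p given for a gene picked in this way. HAPLN3 fell as well, from 4.85 ± 0.270 CPM in RFP to 3.87 ± 0.568 in ETS1-Low and 2.56 ± 0.0428 in ETS1-High (SD, n = 3). The fitted log2 differences were -0.32 (SE 0.11; adjusted p 0.00729, edgeR) and -0.92 (SE 0.12; adjusted p 6.55e-10, edgeR), and the first missed the threshold without ETS1-Low replicate 1. HAPLN4 had 1 to 7 counts per library. The 4 link protein genes summed to 4.39 ± 0.142 FPKM in RFP, 2.19 ± 0.330 in ETS1-Low and 2.28 ± 0.171 in ETS1-High. Link protein transcript was thus still measured in the groups in which lectican transcript was scarce.

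SPOCK1 (ENSG00000152377.13; chromosome 5, 136975298 to 137598379, minus strand, protein coding) encodes testican-1, a secreted proteoglycan that carries chondroitin and heparan sulfate. It had 160, 142 and 135 counts in RFP, 14, 14 and 24 in ETS1-Low, and 34, 45 and 48 in ETS1-High. The groups did not overlap and stood in the order RFP, ETS1-High, ETS1-Low, as for HAPLN1. The level was 3.04 ± 0.280, 0.980 ± 0.107 and 0.423 ± 0.145 CPM in that order (SD, n = 3). From RFP, the fitted log2 difference was -2.84 (SE 0.21) for ETS1-Low and -1.63 (SE 0.18) for ETS1-High. ETS1-High was above ETS1-Low by 1.22 on the log2 scale (SE 0.24; adjusted p 2.46e-05, edgeR).

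Of the hyaluronan synthase genes, HAS1 and HAS2 were at or near the limit of detection and HAS3 was low. HAS2 had 0 counts in all 9 libraries, which allows up to 3 counts in each, and HAS1 had 1 count in ETS1-Low replicate 3 and 0 elsewhere. HAS3 (ENSG00000103044.10; chromosome 16, 69105653 to 69118719, plus strand, protein coding) had 20, 21 and 33 counts in RFP, 62, 86 and 62 in ETS1-Low, and 18, 24 and 26 in ETS1-High. ETS1-Low stood above both other groups without overlap, while RFP and ETS1-High overlapped. The level was 0.513 ± 0.142 CPM in RFP, 1.69 ± 0.204 in ETS1-Low and 0.524 ± 0.0631 in ETS1-High (SD, n = 3). The log2 fold change against RFP was 1.71 (SE 0.23) in ETS1-Low and 0.03 (SE 0.27) in ETS1-High, where its sign changed between settings. ETS1-High was lower than ETS1-Low, with a log2 difference of -1.68 (SE 0.24; adjusted p 2.38e-08, edgeR). HAS3 shares 365 exon bases with CHTF8 on the other strand, which had 4462 to 5668 counts per library, so the small HAS3 counts are uncertain. The expected counts of HAS3 were whole numbers in all 9 libraries, and mixing of reads was not tested. Summed over the 3 synthases, the level was 0.140 FPKM in RFP, 0.480 in ETS1-Low and 0.127 in ETS1-High.

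TNFAIP6 (ENSG00000123610.4; chromosome 2, 151357592 to 151380046, plus strand, protein coding) showed the reverse of the VCAN pattern. It had 5, 2 and 5 counts in RFP, 1637, 1891 and 1777 in ETS1-Low, and 1393, 1620 and 1610 in ETS1-High. It was barely detected in RFP and was the most abundant of the 10 genes, per length, in both ETS1 groups. The ratio of ETS1-Low to RFP was 514 (95% exact counting interval 294 to 995), and that of ETS1-High to RFP was 429 (246 to 832). Its level reached 42.9 ± 0.750 CPM in ETS1-Low, and in ETS1-High it was 35.8 ± 0.391 CPM (SD, n = 3). In CPM each ETS1-High library lay below each ETS1-Low library, by a log2 difference of -0.26 (SE 0.04; adjusted p 8.97e-07, edgeR). The group with more ETS1 thus had slightly less TNFAIP6. On the log2(FPKM + 0.1) scale the same difference was -0.24 and did not pass.

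CD44 (ENSG00000026508.18; chromosome 11, 35138882 to 35232402, plus strand, protein coding) encodes the main cell surface receptor for hyaluronan. It had 90, 109 and 98 counts in RFP, 90, 115 and 105 in ETS1-Low, and 697, 824 and 667 in ETS1-High. The ETS1-High libraries stood apart from the other 6. The level was 2.07 ± 0.233 CPM in RFP, 2.50 ± 0.104 in ETS1-Low and 17.0 ± 1.81 in ETS1-High (SD, n = 3). The fitted log2 difference of ETS1-High from RFP was 3.04 (SE 0.10), and the direct difference from ETS1-Low was 2.76 (SE 0.10; adjusted p 4.75e-30, edgeR). Between ETS1-Low and RFP the difference was 0.28 (SE 0.12), and 0.15 to 0.36 over 19 alternative settings. The median log2 fold change of the 48 expressed genes within 10 Mb of CD44 was 0.27 in that comparison and 0.31 in ETS1-High against RFP. Gene-level counts do not separate the splice forms of CD44.

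**Figure D2:**
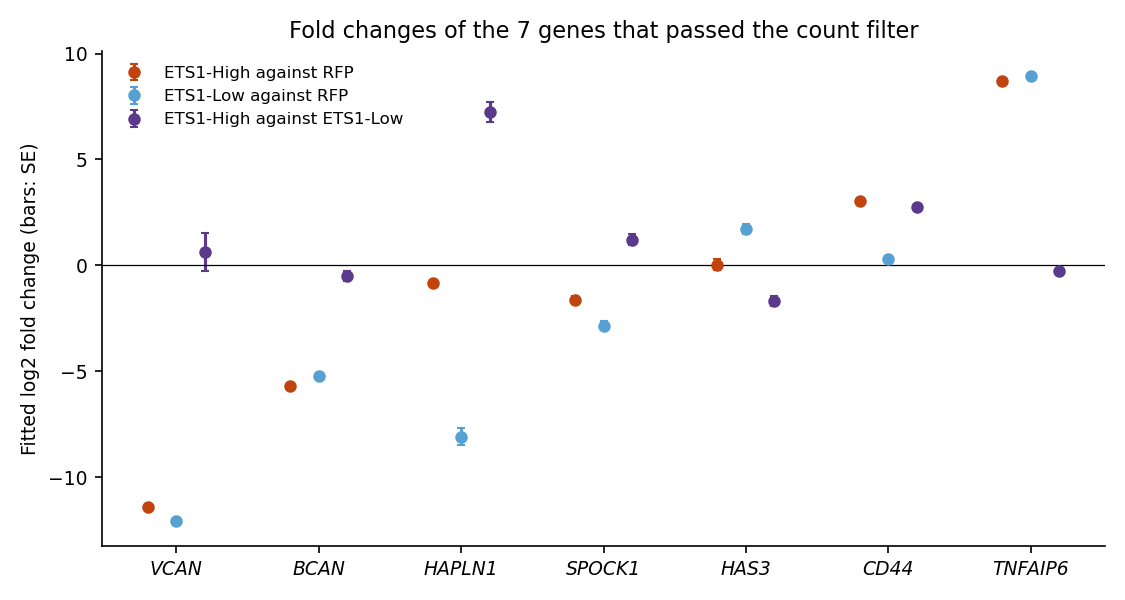
Fitted log2 fold change of the 7 genes that passed the count filter, in ETS1-High against RFP, ETS1-Low against RFP and ETS1-High against ETS1-Low. Bars are the SE derived from the F of the test. They understate counting error where a group has few counts, as for VCAN against RFP. The comparisons with RFP lie close together for VCAN, BCAN and TNFAIP6 and apart for HAPLN1, HAS3 and CD44; fitted values of VCAN, and of HAPLN1 in ETS1-Low, rest on 0 to 3 counts per library.

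The order of the genes by length-scaled level differed between groups. In RFP it was VCAN (16.3 ± 0.472 FPKM), BCAN (9.47 ± 0.413), CD44 (1.47 ± 0.329), SPOCK1 (0.933 ± 0.266), HAPLN1 (0.880 ± 0.184), HAS3 (0.140 ± 0.0346) and TNFAIP6 (0.0867 ± 0.0451), where SPOCK1 and HAPLN1 overlap, as do HAS3 and TNFAIP6. In ETS1-Low it was TNFAIP6 (35.3 ± 0.447 FPKM), CD44 (1.72 ± 0.0493), HAS3 (0.477 ± 0.0611), BCAN (0.280 ± 0.131) and SPOCK1 (0.177 ± 0.127), where BCAN overlaps both HAS3 and SPOCK1. In ETS1-High it was TNFAIP6 (30.0 ± 0.316 FPKM), CD44 (8.23 ± 0.966), HAPLN1 (0.700 ± 0.0700), SPOCK1 (0.307 ± 0.116), BCAN (0.193 ± 0.0493) and HAS3 (0.127 ± 0.0153), where SPOCK1 and BCAN overlap.

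In ETS1-High against RFP, 6 of the 7 tested genes were called by edgeR at an adjusted p under 0.05, 2 higher and 4 lower, beside 74.2% of all 17235 tested genes (37.0% higher, 37.2% lower). In ETS1-Low against RFP all 7 were called, 3 higher and 4 lower, beside 74.1% of all genes (37.9% higher, 36.2% lower). The count of 7 includes CD44, which dropped out of it in 13 of the 19 alternative settings. These counts are printed for reference only, since those contrasts entered the choice of the genes, and both comparisons use the same RFP libraries. In ETS1-High against ETS1-Low, 5 of 7 were called, beside 59.2% of all genes. CD44, HAPLN1 and SPOCK1 were higher (29.9% of all genes) and TNFAIP6 and HAS3 lower (29.3%). With so many genes called, a call by itself does not set any of the 10 apart.

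The genes around VCAN and HAPLN1 were compared with them, because neighbouring genes share a chromosome segment. Among the 57 expressed genes within 10 Mb of VCAN the median log2 fold change from RFP was -0.32 for ETS1-High and -0.33 for ETS1-Low, beside -0.35 and -0.39 over the 552 expressed genes of chromosome 5. On one side of VCAN, TMEM167A had 136 ± 3.57 CPM in RFP, 108 ± 2.08 in ETS1-Low and 113 ± 1.23 in ETS1-High (SD, n = 3). It fell in both ETS1 groups, with log2 fold changes of -0.33 and -0.27 (adjusted p 1.42e-13 and 5.98e-11, edgeR). XRCC4, a factor of DNA end joining, fell too, with log2 fold changes of -0.64 for ETS1-Low and -0.71 for ETS1-High (adjusted p 2.57e-11 and 1.13e-12, edgeR). On the other side, EDIL3, which encodes a secreted integrin ligand, had 22, 19 and 22 counts in RFP, 0 in every ETS1-Low library, and 32, 21 and 19 in ETS1-High. It was at least 5.99-fold lower in ETS1-Low than in RFP and at least 7.78-fold lower than in ETS1-High, taking 3 counts per library as the floor. EDIL3 and HAPLN1 thus both had at most 1 count in any ETS1-Low library and were detected in every ETS1-High library.

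TNFAIP6 lay among genes that were themselves higher in both ETS1 groups. Over the 33 expressed genes within 10 Mb, the median log2 fold change from RFP was 1.04 for ETS1-High and 0.61 for ETS1-Low, beside 0.46 and 0.32 for chromosome 2. Of the 9 other tested coding genes reported within 1 Mb, 7 rose in both comparisons, CACNB4 fell in both, and ENSG00000283228 passed in neither, where 37.0% and 37.9% of all genes were called higher in ETS1-High and ETS1-Low. NMI, an interferon-induced gene just upstream, rose from 1.49 ± 0.369 CPM in RFP to 20.5 ± 0.833 in ETS1-Low and 22.8 ± 0.246 in ETS1-High (SD, n = 3). The fitted log2 differences were 3.78 and 3.94 (SE 0.09 each; adjusted p 7e-37 and 5.72e-38, edgeR). RBM43 beside it rose by 2.17 and 2.54 (adjusted p 1.16e-25 and 3.74e-29, edgeR). NEB, the gene of the giant muscle protein nebulin, rose by 2.04 in ETS1-Low and by 6.82 in ETS1-High (adjusted p 1.17e-12 and 5.57e-39, edgeR), reaching 48.4 ± 3.74 CPM. RND3, RIF1, STAM2 and FMNL2 rose by 0.53 to 1.04 in ETS1-Low and by 0.84 to 1.52 in ETS1-High. None of the 9 matched the difference in TNFAIP6 itself, and a shift of the whole region was not tested as its source. Around the remaining tested genes the local medians were -0.13 and -0.09 for BCAN, -0.29 and -0.31 for SPOCK1, and 0.00 and -0.06 for HAS3, the ETS1-High value first.

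**Figure D3:**
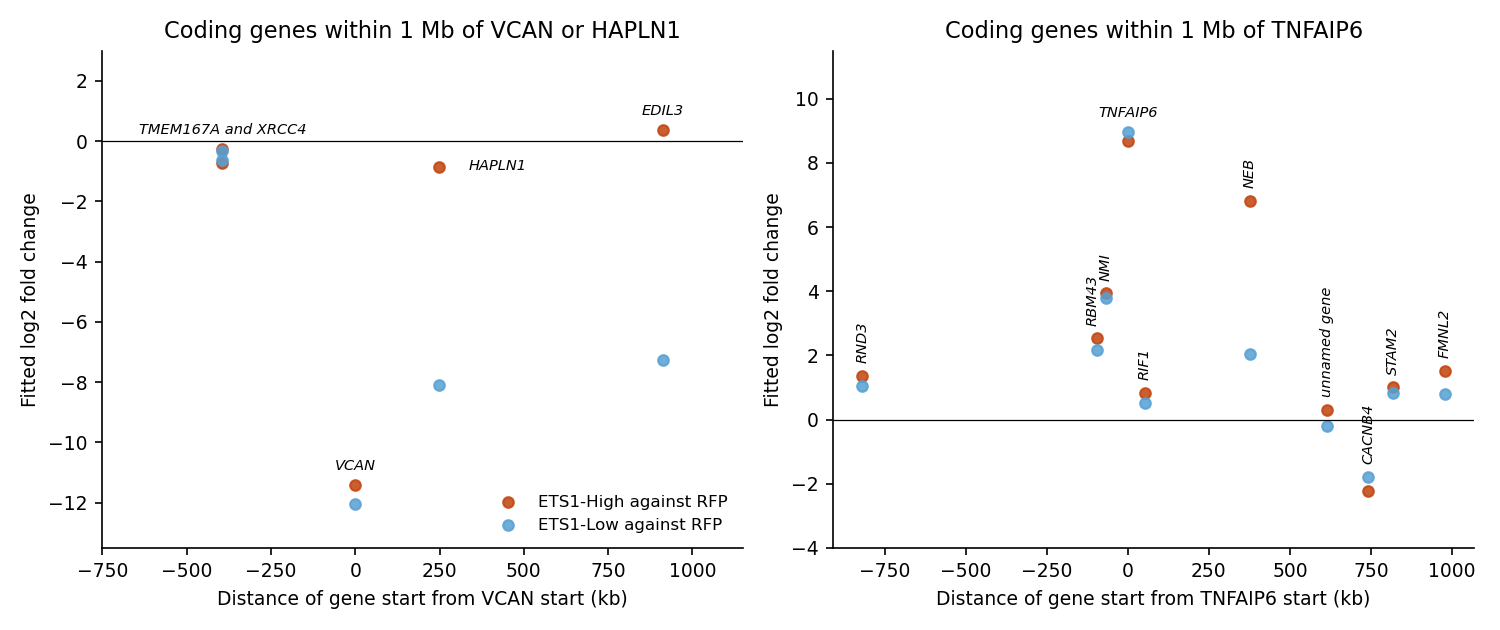
Fitted log2 fold change of the reported coding genes within 1 Mb of VCAN or HAPLN1 (left) and of TNFAIP6 (right) by distance of their start in kb, for ETS1-High and ETS1-Low against RFP. TMEM167A and XRCC4 lie near 0 beside VCAN, and NMI, RBM43 and NEB lie above the other neighbours of TNFAIP6; the ETS1-Low value of EDIL3 rests on 0 counts and is no measured size.

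Genes whose log2 CPM followed that of VCAN or TNFAIP6 were listed by Pearson's r over the 9 libraries, among the 12389 tested genes whose mean reached 100 counts. The libraries fall into 3 groups, so r mostly reflects the group means. Closest to VCAN were GFPT2 (r = 0.9986), AP001372.2 (0.9981), ITGA5 (0.9981), WASF1 (0.9976) and PCSK5 (0.9975). ITGA5, the alpha chain of the fibronectin receptor, had 139.9 ± 0.959 CPM in RFP, 53.0 ± 0.830 in ETS1-Low and 53.3 ± 0.995 in ETS1-High (SD, n = 3). PCSK5, a proprotein convertase, had 8.10 ± 0.402, 0.0487 ± 0.00421 and 0.0839 ± 0.0309 CPM in the same order. Closest to TNFAIP6 were XG, HAP1 and CASP1 (0.9993 each) and EPB41L3 and CPEB2 (0.9992 each). CASP1, the inflammatory caspase, had 2.99 ± 0.533, 26.9 ± 0.358 and 25.4 ± 0.842 CPM, and EPB41L3 had 3.54 ± 0.217, 93.8 ± 2.53 and 91.3 ± 1.28 CPM. The likeness is in shape and not in size: CPEB2 only went from 20.0 to 41.0 and 40.4 CPM.

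The wider matrix machinery was described from 8 lists holding 71 other genes, of which 47 passed the count filter. Over these 47, 21 were called higher and 16 lower in ETS1-High against RFP (median log2 fold change 0.06), and 17 higher and 24 lower in ETS1-Low against RFP (median -0.21). In ETS1-High against ETS1-Low 20 were higher and 16 lower (median 0.07). The share called was 78.7%, 87.2% and 76.6%, beside 74.2%, 74.1% and 59.2% of all genes, whose medians were -0.0094, 0.0101 and -4.67e-05. The lists as a whole moved in both directions.

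**Figure D4:**
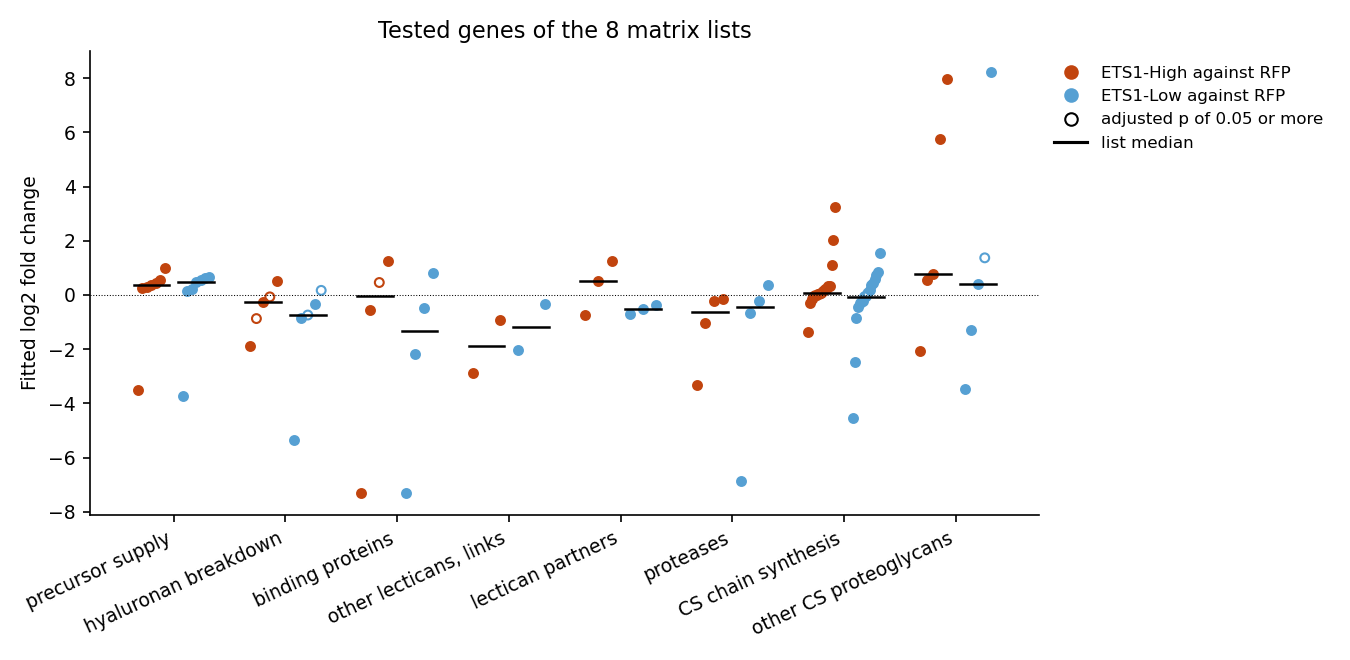
Fitted log2 fold change of the 47 tested genes in the 8 matrix lists against RFP; filled points passed an adjusted p of 0.05, open points did not, and bars are list medians. Precursor supply genes lie just above 0 except GFPT2, and the lectican partners TNC and FBN1 lie above 0 in ETS1-High and below it in ETS1-Low, with FBLN1 below 0 in both; the lowest binding protein point is ITIH5, whose fitted value rests on 0 counts in the ETS1 groups.

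Genes that supply the sugar precursors of hyaluronan were tested in full: of 7, 6 rose and 1 fell in each comparison with RFP, where 37.0% (ETS1-High) and 37.9% (ETS1-Low) of all genes were called higher, and the median log2 difference was 0.36 for ETS1-High and 0.47 for ETS1-Low. PGM3, which acts on the way to UDP-N-acetylglucosamine, rose from 61.4 ± 0.972 CPM in RFP to 85.2 ± 1.99 in ETS1-Low and 121 ± 1.59 in ETS1-High (SD, n = 3; adjusted p 3.03e-18 and 9.52e-32, edgeR). GFPT1, which opens the hexosamine pathway, rose by 0.57 and 0.45 on the log2 scale (SE 0.03 each; adjusted p 5.57e-22 and 5.91e-18, edgeR). The gene that fell was GFPT2, its paralogue, with 661, 753 and 724 counts in RFP, 49, 43 and 45 in ETS1-Low, and 39, 69 and 62 in ETS1-High. Its log2 fold changes were -3.74 (SE 0.12) and -3.50 (SE 0.11; adjusted p 4.45e-32 and 1.28e-31, edgeR). GFPT2 is thus the precursor gene that followed VCAN.

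Of 5 tested hyaluronan breakdown genes, 1 rose and 2 fell in ETS1-High and 3 fell in ETS1-Low, so 60.0% were called in each comparison beside 74.2% and 74.1% of all genes. HYAL2, a hyaluronidase of the cell surface, fell in both groups, with log2 fold changes of -0.35 for ETS1-Low and -0.27 for ETS1-High (SE 0.06 each; adjusted p 4.44e-07 and 3.96e-05, edgeR). CEMIP2, a transmembrane hyaluronan-degrading protein listed under its older symbol, had 44.1 ± 2.31 CPM in RFP, 24.5 ± 0.706 in ETS1-Low and 42.0 ± 1.83 in ETS1-High (SD, n = 3). It fell in ETS1-Low (adjusted p 3.23e-23, edgeR) and did not pass in ETS1-High (log2 fold change -0.07, adjusted p 0.0984, edgeR), though 4 of 19 alternatives called it lower there, at -0.09 to -0.13. CEMIP, its secreted relative, named after its values were seen, had 37, 31 and 43 counts in RFP, 0, 2 and 0 in ETS1-Low, and 5, 9 and 13 in ETS1-High.

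Most of the 13 other hyaluronan binding genes were too low to test, and of the 4 tested, 1 rose and 2 fell in ETS1-High and 1 rose and 3 fell in ETS1-Low, where 74.2% and 74.1% of all genes were called. LAYN, which encodes the receptor layilin, rose from 8.04 ± 0.700 CPM in RFP to 14.0 ± 0.304 in ETS1-Low and 19.3 ± 0.775 in ETS1-High (SD, n = 3; adjusted p 5.81e-15 and 4.33e-23, edgeR). HMMR, a receptor that also acts on the mitotic spindle, fell from 133 ± 1.39 to 96.0 ± 3.41 and 90.4 ± 3.25 CPM (adjusted p 1.16e-18 and 2.12e-21, edgeR). ITIH5, one of the heavy chain genes, named after its values were seen, had 26, 18 and 21 counts in RFP and 0 in the 6 ETS1 libraries. It was at least 6.18-fold lower in ETS1-Low and at least 6.45-fold lower in ETS1-High.

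The partners that lecticans bind in the matrix differed between the ETS1 groups. TNC, the tenascin-C gene, had 1893 ± 19.1 CPM in RFP, 1159 ± 16.4 in ETS1-Low and 2730.2 ± 64.2 in ETS1-High (SD, n = 3). FBN1, the fibrillin-1 gene, had 20.5 ± 0.409, 16.0 ± 1.70 and 49.8 ± 3.79 CPM in the same order. Both fell in ETS1-Low (adjusted p 4.38e-27 and 3.99e-05, edgeR) and rose in ETS1-High (5.97e-22 and 2.63e-15), and no libraries of the 3 groups overlapped. The direct difference between the ETS1 groups was 1.24 for TNC and 1.63 for FBN1 on the log2 scale (SE 0.03 and 0.06; adjusted p 1.11e-36 and 1.4e-16, edgeR). The expected counts of TNC were not whole numbers in any of the 9 libraries, so some of its reads were shared with other features. FBLN1, the fibulin-1 gene, fell in both groups, from 163 ± 2.57 CPM to 113 ± 1.16 and 98.5 ± 2.44 (adjusted p 1.85e-21 and 4.9e-27, edgeR).

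Of the proteases that cut versican, 4 of 4 tested fell in ETS1-High, where 37.2% of all genes were called lower. In ETS1-Low 3 fell and 1 rose, where 36.2% of all genes were called lower. ADAMTS4 fell from 36.3 ± 1.92 CPM in RFP to 22.8 ± 0.209 in ETS1-Low and 17.8 ± 0.550 in ETS1-High (SD, n = 3; adjusted p 3.57e-18 and 4.05e-25, edgeR). ADAMTS9 fell slightly, with log2 fold changes of -0.21 and -0.16 (adjusted p 0.000259 and 0.00413, edgeR). ADAMTS1 rose in ETS1-Low by 0.35 (adjusted p 0.0001, edgeR) and fell in ETS1-High, where the log2 fold change was -0.23 (adjusted p 0.0136, edgeR). The fall of ADAMTS1 missed the threshold without ETS1-High replicate 2 or 3, at -0.16 and -0.19, and both of its calls against RFP were lost on the FPKM scales.

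Genes that build chondroitin sulfate chains moved in both directions: of 17 tested, 7 rose and 3 fell in ETS1-High, and 7 rose and 7 fell in ETS1-Low. The share called was 58.8% and 82.4%, below and above the 74.2% and 74.1% of all genes. XYLT1, a xylosyltransferase that starts the chain, had 57, 38 and 48 counts in RFP, 0, 1 and 4 in ETS1-Low, and 409, 404 and 401 in ETS1-High. It thus rose in ETS1-High by 3.24 (SE 0.14; adjusted p 1.11e-25, edgeR) and fell in ETS1-Low, where the change was -4.53 (SE 0.39; adjusted p 2.01e-14, edgeR). The epimerase genes DSE and DSEL, whose enzymes turn chondroitin into dermatan sulfate, went opposite ways. DSE fell from 10.9 ± 1.08 CPM in RFP to 1.98 ± 0.0793 in ETS1-Low and 4.30 ± 0.469 in ETS1-High (SD, n = 3; adjusted p 9.92e-27 and 1.47e-18, edgeR). DSEL rose from 22.9 ± 0.389 to 66.1 ± 2.54 and 94.0 ± 4.55 CPM (adjusted p 1.88e-35 and 1.78e-41, edgeR).

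Among the 5 tested genes of other chondroitin sulfate proteoglycans, 4 rose and 1 fell in ETS1-High, and 2 rose and 2 fell in ETS1-Low, where 74.2% and 74.1% of all genes were called. SRGN, the gene of the intracellular granule proteoglycan serglycin, had 3, 11 and 7 counts in RFP, 1722, 2098 and 1715 in ETS1-Low, and 1431, 1693 and 1651 in ETS1-High. The ratio to RFP was 306 in ETS1-Low (95% exact counting interval 200.2 to 495) and 253 in ETS1-High (166 to 409.9). The fit gave adjusted p 4.57e-47 and 5.01e-46 (edgeR), for a gene named because of its small p. PTPRZ1, which encodes phosphacan and its receptor form, fell from 31.0 ± 0.387 CPM to 12.6 ± 0.684 in ETS1-Low and 7.49 ± 0.297 in ETS1-High (SD, n = 3; adjusted p 1.59e-26 and 6.58e-34, edgeR). CSPG5 rose by 0.42 and 0.77 on the log2 scale (adjusted p 2.22e-06 and 1.17e-13, edgeR). BGN and DCN, the small leucine-rich proteoglycans biglycan and decorin, were named after their values were seen. BGN had 272, 319 and 363 counts in RFP, 26, 23 and 25 in ETS1-Low, and 356, 493 and 428 in ETS1-High. DCN had 0 to 2 counts in each RFP and ETS1-Low library and 43, 42 and 32 in ETS1-High, and it is 1 of the 8 mesenchymal markers above.

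**Figure D5:**
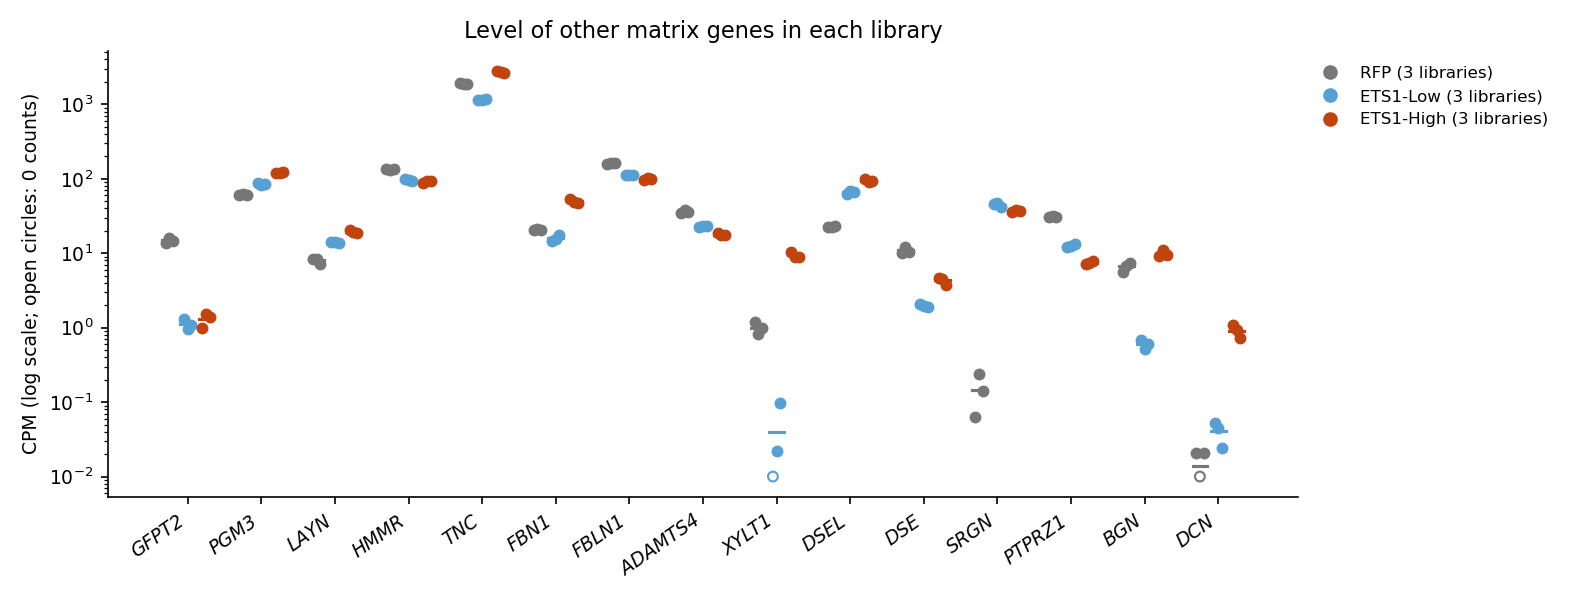
Level of 15 other matrix genes in each library, in CPM on a log axis; points are libraries, bars are group means and open circles are 0 counts. GFPT2 and PTPRZ1 are high in RFP, SRGN and DSEL high in both ETS1 groups, and TNC, FBN1, XYLT1 and BGN low in ETS1-Low and high in ETS1-High.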

How the data were processed

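Stranded mRNA libraries of 9 TC-32 samples were sequenced. The authors deposited RSEM expected counts and FPKM values per gene, as the names of the deposited tables state. Cutadapt 4.4, STAR 2.7.3, featureCounts, Subread 2.0.3, limma 3.38.3 and GRCh38 are named, with no roles, per the submitters' processing notes; the annotation release is not given in the sources used here. Columns were matched by name, with L and H read as ETS1-Low and ETS1-High, and 0 were left over. The labels give no batch.

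Expected counts were rounded, filtered with filterByExpr (17235 genes), TMM-normalised and fitted in 1 edgeR 4.0.16 quasi-likelihood model of all 9 libraries (R 4.3.3, robust, group only). Adjusted p is Benjamini-Hochberg over all tested genes, with calls under 0.05. Replicate pairs differed by a chi-square per gene of 2.66 to 5.19, above sampling noise. A floor of 3 counts per library gives bounds where a group is at 0, and ratios carry exact 95% counting intervals. SE is the absolute log2 fold change divided by the square root of the F of the test. It can fall below counting error where a group has few counts. The fit was tested on simulated data. Alternatives used DESeq2 1.42.0 and limma 3.58.1 on log2(FPKM + 1) or log2(FPKM + 0.1), which understates changes of low genes.

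Members, lists and tests were chosen with earlier results of these data known. Genes named singly were the 10 members, ETS1, antisense genes of members, up to 3 genes per list ranked by p for ETS1-High against RFP (mean of at least 100 counts), tested coding genes within 1 Mb of VCAN, HAPLN1 or TNFAIP6, and the 5 genes most correlated with VCAN and with TNFAIP6. A gene selected in this way is not reported here. Positions are from GENCODE v44, by gene identifier.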

Additional observations from a re-analysis of the deposited data

Results flagged for a closer look

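For 5 of the 10 genes, ETS1-High and ETS1-Low differed in the direct edgeR comparison between those groups. The genes were chosen with these libraries' values known, so this is not independent evidence. On the log2 scale, ETS1-High minus ETS1-Low was 7.23 for HAPLN1, 2.76 for CD44 and 1.22 for SPOCK1. It was -1.68 for HAS3 and -0.26 for TNFAIP6. Of the list genes named by the rule, 4 were called in opposite directions against RFP in the 2 ETS1 groups. TNC (1.24), FBN1 (1.63) and XYLT1 (7.77) were higher in ETS1-High and lower in ETS1-Low, and ADAMTS1 (-0.58) was the reverse. Outside the rule, BGN, CHPF, CHST12 and UST were also called higher in ETS1-High (0.57, 0.23, 0.25 and 1.10) and lower in ETS1-Low (-3.46, -0.43, -0.21 and -0.25). Since 59.2% of all tested genes passed the same direct comparison, passing it is common in these libraries. The share of all tested genes called in opposite directions against RFP is not given here. The counts of such genes therefore have no scale beside them and are not read as unusual.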

How the results depend on the processing

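Of 371 fold changes of the 10 genes under 19 alternatives, 348 kept their direction and side of the threshold, 16 lost the call, 1 gained it and 6 changed sign. Asking for at least 10 counts in every library left 3 of the 10 genes called in each comparison. It removes VCAN, HAPLN1 and TNFAIP6, which are nearly absent from a group, and CD44 also lost its call in ETS1-Low against RFP. FPKM with a mean of at least 1 left 3 called in ETS1-Low against RFP with either pseudocount, and 2 (pseudocount 1) or 1 (pseudocount 0.1) in ETS1-High against ETS1-Low. That filter removes HAPLN1, SPOCK1 and HAS3, so these genes were not tested there. Leaving out each library gave 6, 6 to 7 and 5 to 6 called in ETS1-High against RFP, ETS1-Low against RFP and ETS1-High against ETS1-Low. Sign changes all concerned differences that had not passed. HAS3 in ETS1-High against RFP was 0.03, and -0.03 with upper-quartile factors, -0.02 with unfiltered FPKM + 1, and -0.10 to 0.28 leaving out each library. VCAN in ETS1-High against ETS1-Low ranged from -0.02 to 1.53 and ADAMTS9 from -0.0018 to 0.09 leaving out each library, and TMEM167A there was 0.06, and -0.01 on the 3 FPKM settings. CD44 in ETS1-Low against RFP (0.28) ranged from 0.21 to 0.36 leaving out each library and lost its call without RFP replicate 1 or 3 or ETS1-Low replicate 2 or 3. Unfiltered FPKM + 1 also ended the calls of HAPLN1 in ETS1-High against RFP (-0.14) and SPOCK1 in ETS1-High against ETS1-Low (0.15). The group means of both genes were under 1 FPKM, where adding 1 understates changes. What ended the calls was not tested. The share of higher calls among all called genes against RFP was 49.8% (ETS1-High) and 51.2% (ETS1-Low) in the main fit. It was 38.4% and 36.8% with unfiltered FPKM + 1, and 41.2% and 41.6% with FPKM + 1 and a mean of at least 1. Upper-quartile factors gave 44.5% and 46.6%. With the replicate number as a block, 6, 7 and 5 of the 10 genes were called, as without it, and 12701, 12729 and 10122 of all genes. Same-numbered libraries did not deviate together over all tested genes (r of -0.0295 to 0.0276), so no pairing by number was seen at that scale. A link limited to some genes would not show in this check. Of 1737 fold changes of other named genes, 1695 kept direction and call and 4 changed sign. Depth limits VCAN, HAPLN1 and HAS genes where counts are 0 to 3.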
